A study of Mus musculus with 15 samples.

Results

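The mRNA of 9 genes that build or restrain the phosphoinositide 3-kinase (PI3K) pathway were followed in mouse CD8+ T cells. They are the 4 class I catalytic subunits Pik3ca, Pik3cb, Pik3cd and Pik3cg, the regulatory subunits Pik3r1 and Pik3r5, the inhibitor Pik3ip1 and the phosphatases Inpp5d and Inpp4b. The genes were taken by symbol, and all 9 had a row among the 11262 mRNA of the naïve and activated cells and among the 11211 mRNA of the cytotoxic T lymphocytes (CTL). The study asked which parts of the transcriptional response to antigen depend on the catalytic subunit p110δ. The levels here show whether the mRNA of the pathway's own components differed under inhibition, not whether its activity did.

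All 15 libraries came from P14 mice, whose transgenic T cell receptor (TCR) recognises the peptide gp33–41 of a lymphocytic choriomeningitis virus glycoprotein, so all cells shared 1 receptor specificity. For the first 9 libraries, lymph node cells of 3 mice, adult females according to the methods, were pooled for each of 3 replicates, and each pool was split over the conditions. Naïve cells were sorted as CD8+ CD62L high CD44 low without culture. TCR activated cells were kept for 24 h with gp33–41 at 100 ng/ml in medium containing IL-12 at 2 ng/ml and IL-2 at 20 ng/ml. The third group received in addition the p110δ inhibitor IC87114 at 10 µM (PI3Kdi). Both activated groups were sorted as live CD8+ cells. No group of these libraries was cultured without gp33–41. In differences from naïve cells the peptide, the cytokines, the culture and the sort therefore cannot be told apart. The inhibitor was given at 1 dose and sampled at 1 time. For the other 6 libraries, CTL were made by 48 h of activation and 4 days in 20 ng/ml IL-2, washed on day 6, and kept for 24 h with or without 20 ng/ml IL-2, with 3 replicates of each. No sort and no age of the mice is stated for the CTL, and they were not treated with PI3Kdi. Levels are given as fragments per kilobase of exon, scaled to the size of the library (FPKM), a unit per length that allows genes to be compared within a library.

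Class I PI3K convert the membrane lipid PIP2 to PIP3, which recruits protein kinases to the membrane and thereby keeps the transcription factor FOXO1 out of the nucleus. p110α, p110β and p110δ work with p85-type regulatory subunits downstream of antigen and cytokine receptors, whereas p110γ works with p101 or p84 downstream of G protein-coupled receptors. The signal is ended by phosphatases: SHIP-1 turns PIP3 to PI(3,4)P2, and INPP4B removes a further phosphate from PI(3,4)P2. In lymphocytes p110δ is the main catalytic isoform used by antigen receptors.

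Promoter sequences are shown for the pair of genes that rose with PI3Kdi, and for the 1 gene of the 9 with a forkhead motif, since FOXO factors bind such letters. Each sequence is the RefSeq window of build GRCm38.p6 from 250 bases before to 50 bases after the transcription start, written in the direction of the gene, and capitals mark the motif. The first is Pik3ip1 at chr11:3330481-3330780 on the plus strand, the second is Inpp4b at chr8:81342312-81342611 on the plus strand, and the third is Pik3cg at chr12:32208421-32208720 on the minus strand.
Pik3ip1: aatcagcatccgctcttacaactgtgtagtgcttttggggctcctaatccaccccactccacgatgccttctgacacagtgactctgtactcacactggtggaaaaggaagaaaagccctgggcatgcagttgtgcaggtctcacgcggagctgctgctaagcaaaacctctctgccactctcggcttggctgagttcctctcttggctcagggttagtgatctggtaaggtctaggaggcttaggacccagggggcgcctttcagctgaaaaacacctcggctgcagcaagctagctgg
Inpp4b: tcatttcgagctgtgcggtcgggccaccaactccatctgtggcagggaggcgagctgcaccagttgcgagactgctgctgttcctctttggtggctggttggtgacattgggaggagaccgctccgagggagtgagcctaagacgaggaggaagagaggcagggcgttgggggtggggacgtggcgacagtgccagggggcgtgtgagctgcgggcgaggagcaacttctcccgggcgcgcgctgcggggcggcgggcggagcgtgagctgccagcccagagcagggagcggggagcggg
Pik3cg: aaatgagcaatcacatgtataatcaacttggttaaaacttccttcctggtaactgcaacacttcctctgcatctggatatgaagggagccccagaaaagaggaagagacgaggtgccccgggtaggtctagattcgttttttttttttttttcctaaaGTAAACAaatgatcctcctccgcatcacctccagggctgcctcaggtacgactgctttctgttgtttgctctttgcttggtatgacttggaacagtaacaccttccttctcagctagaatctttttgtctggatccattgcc
The letters GTAAACA, searched on both strands, were present in 1 of the 13 windows that RefSeq gives for the 9 genes, and in 3.65% of the 32851 windows of all genes. The match in Pik3cg lay 92 to 86 bases before the start of the window shown and read in the direction of the gene. RefSeq gives this gene another window, at chr12:32208610-32208909, which did not hold the letters. The match lies downstream of the start of that window. The windows of Pik3ip1 and Inpp4b did not hold these letters. Both windows lie inside their genes, annotated from 3319241 and 81342266, so the sequence before those positions was not searched. A match is a description of the sequence and was not tested as a binding site.

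Naïve, activated and CTL libraries differed little within a group. The lowest Pearson r between replicates, across genes of a table, was 0.983, in the TCR activated cells. All 8 CD8 T cell markers listed (such as Cd8a, Cd8b1 and Thy1) were present in every group, with summed levels from 1310 to 5183 FPKM over the libraries. Of 7 B cell markers, 5 were in the table of the naïve and activated cells, and their sum was 20.98 to 27.0 FPKM in naïve cells, 4.92 to 7.82 FPKM in TCR activated cells and 3.33 to 4.63 FPKM with PI3Kdi. Cd79b, at 20.3 FPKM, made most of the sum in naïve cells and 3.02 FPKM of it in TCR activated cells, while Pax5 and Blk had no row. With PI3Kdi 3 of the 5 were called lower, among them Ms4a1, from 0.733 to 0.0633 FPKM, and Cd22, from 0.53 to 0.0333 FPKM. Of 10 myeloid markers 3 had a row, with sums from 2.48 to 5.34 FPKM, and Lyz2 and Csf1r had none. Of 7 dendritic cell markers 2 had a row, and their sum was led by Batf3, also an activation gene of T cells, at 56.14 to 89.63 FPKM in TCR activated and 13.26 to 22.77 FPKM in PI3Kdi treated cells, against at most 0.1 FPKM in naïve cells. Of 3 CD4 T cell markers 2 had a row, with sums from 0.1 to 1.48 FPKM, and Cd4 had none. Of 6 NK cell markers 3 had a row, led by Nkg7, which CD8 T cells also express, with sums of 422.8 to 448 FPKM in naïve, 164.7 to 199.9 FPKM in TCR activated and 144.5 to 156.8 FPKM in PI3Kdi treated cells. The part of these cells or genes in the results was not tested.

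**Figure D1:**
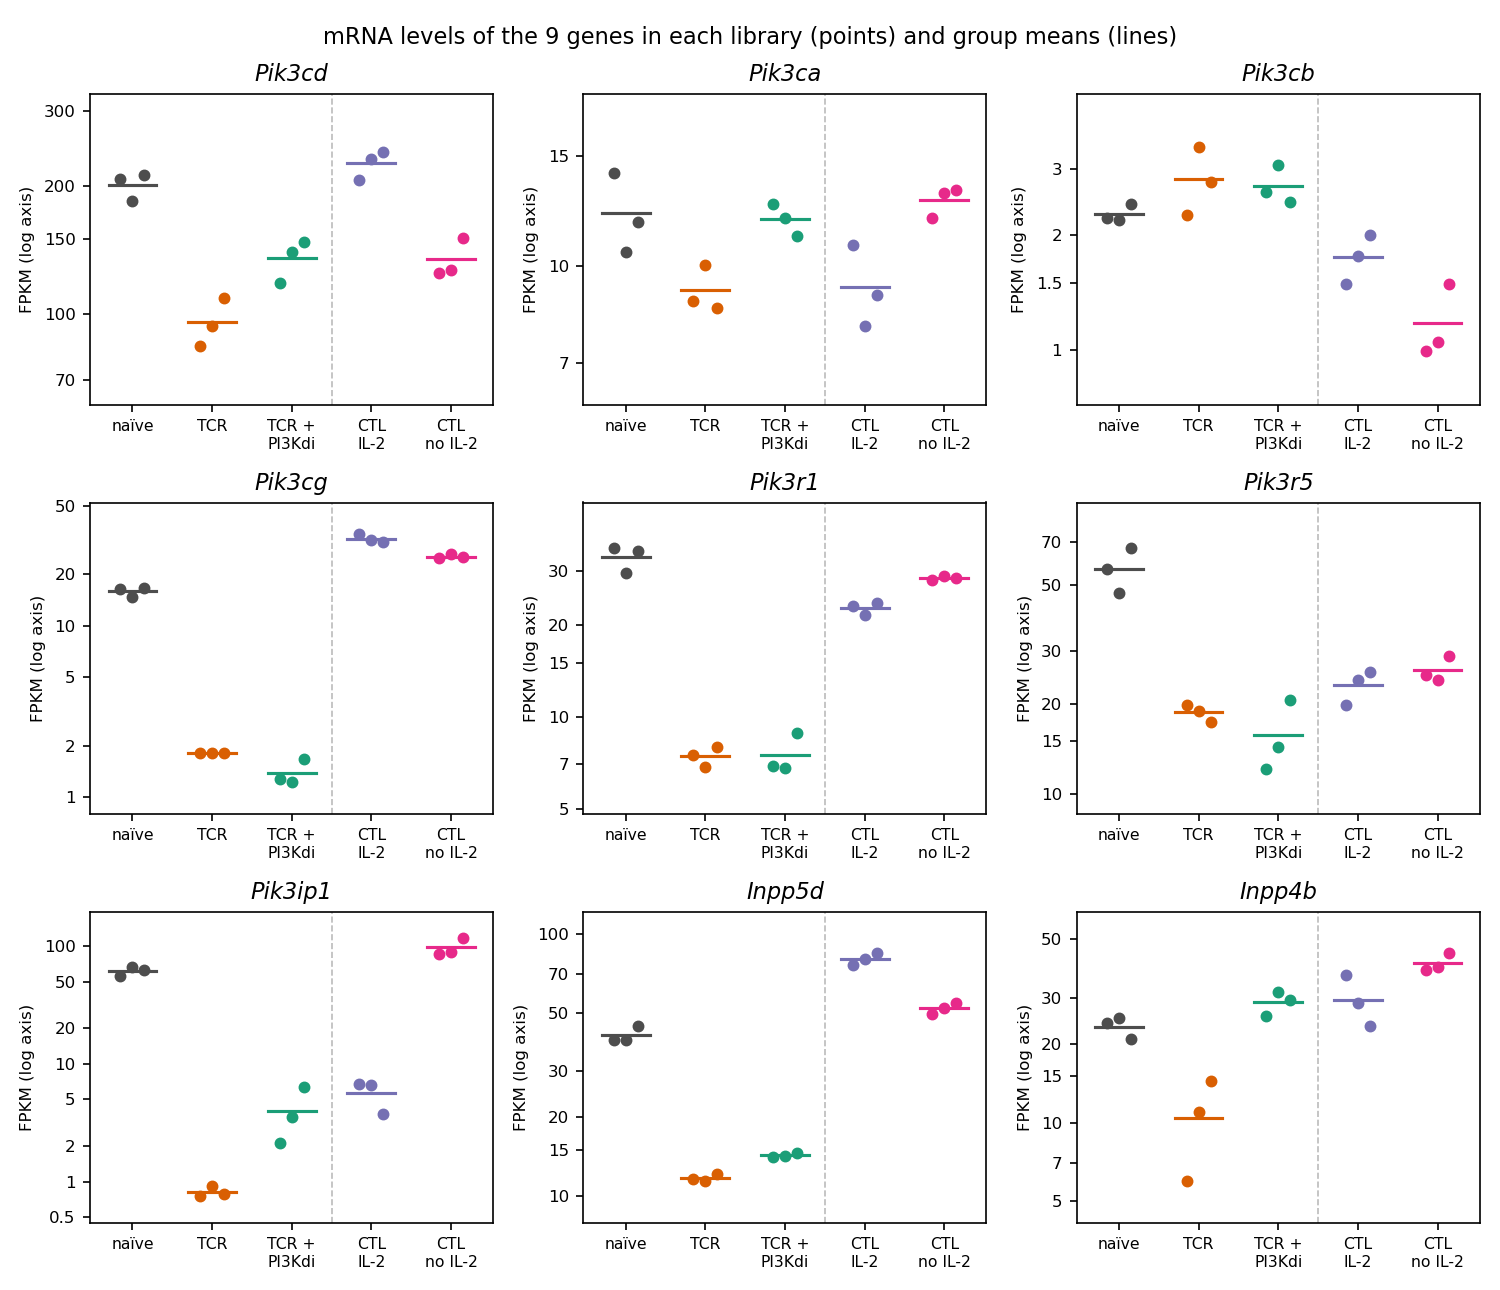
Levels of the 9 mRNA in FPKM on a log axis, 1 panel per gene, with a point for each of the 15 libraries and a line for the mean of each group. The dashed line separates the 2 tables, which were normalised separately. Pik3cd was the highest of the 9 in every group, and Pik3ip1 ranged from 0.75 FPKM in a TCR activated library to 117 FPKM in a CTL library without IL-2.

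Naïve cells carried the transcripts of a p110δ-dominated pathway. Pik3cd, which encodes p110δ, was at 201 ± 14.5 (SD, n = 3) FPKM, and the next gene in order, Pik3ip1, was at 61.7 ± 5.46 (SD, n = 3) FPKM. Below these came Pik3r5, Inpp5d, Pik3r1, Inpp4b, Pik3cg, Pik3ca and last Pik3cb, at 2.28 ± 0.125 (SD, n = 3) FPKM. Only Pik3ip1 and Pik3r5 (56.8 ± 9.85 FPKM, SD, n = 3) overlapped among neighbours in this order. Pik3ip1 encodes a transmembrane inhibitor of class I PI3K that is found on resting T cells.

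After TCR activation, with its culture and cytokines, 7 of the 9 mRNA were lower than in naïve cells and none was higher. A gene was called changed at a limma adjusted p under 0.05 over all genes of the table and a fold change past 2. By this rule 23.7% of the 11262 mRNA were lower and 25% higher, or 48.7% changed. Before any fold change limit, 8 of the 9 had TCR activated libraries that were all below the naïve ones, where 40% of all mRNA showed this. The median log2 fold change of the 9 was -1.58, against 0.005 over all mRNA. A fall of this size was not particular to the 9: all 8 CD8 T cell markers were also called lower, with a median of -1.82. FPKM are relative to the mRNA of a library, and in bulk libraries fewer cells of a type and less RNA per cell cannot be told apart.

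The fall was steepest for Pik3ip1. Its naïve libraries were at 55.88, 66.68 and 62.64 FPKM and its TCR activated libraries at 0.75, 0.92 and 0.79 FPKM. No library came near the other group, and the mean after activation was 0.0133 of the naïve mean. The log2 fold change was -6.07 ± 0.295 (SE; adjusted p = 5.98e-09), a size that exceeded that of 98.8% of all mRNA. The gene lies on chromosome 11 of GRCm38.p6, from 3319241 to 3342971. The GENCODE annotation places exons of a noncoding transcript, Gm12592, on the opposite strand over exons of Pik3ip1. The kit keeps strand, but whether counting used it is not stated, so reads of the 2 cannot be told apart, and Gm12592 has no row of its own.

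The catalytic subunits did not fall alike. Pik3cg, encoding p110γ, was at 16.35, 14.66 and 16.65 FPKM in naïve libraries and at 1.82, 1.82 and 1.81 FPKM after activation. The groups were far apart and the 3 activated libraries almost equal (log2 fold change -3.06 ± 0.145, SE; adjusted p = 4.96e-09). Pik3cd went from 207.46, 184.81 and 211.80 FPKM to 84.07, 93.93 and 109.48 FPKM. Its groups were also apart, but the change was near the 2-fold limit (log2 fold change -1.08 ± 0.115, SE; adjusted p = 4.49e-06). With each library scaled to the same median, which moved the median of all mRNA from 0.005 to 0.12, its log2 fold change was -0.96, and without TCR activated replicate 1 it was -0.99, both under the limit.

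Pik3ca, encoding the broadly expressed p110α, was at 14.09, 10.54 and 11.77 FPKM in naïve and 8.79, 10.06 and 8.59 FPKM in TCR activated libraries. All activated values were below the naïve ones, yet the log2 fold change of -0.40 ± 0.124 (SE; adjusted p = 0.0115) stayed under 2-fold. Pik3cb, encoding p110β, was between 2.19 and 3.42 FPKM in the 6 libraries, with overlapping groups (log2 fold change 0.28, 95% interval -0.10 to 0.66, adjusted p = 0.156).

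Both regulatory subunits fell. Pik3r1 encodes p85α and its shorter forms, which stabilise and restrain p110α, p110β and p110δ. It was at 35.41, 29.51 and 34.75 FPKM in naïve and 7.52, 6.88 and 8.0 FPKM in TCR activated libraries, with no overlap (log2 fold change -2.14 ± 0.128, SE; adjusted p = 3.20e-08). Pik3r5 encodes p101, the partner of p110γ. It was at 56.43, 47.14 and 66.82 FPKM in naïve and 19.85, 18.97 and 17.41 FPKM in activated libraries, again apart (log2 fold change -1.58 ± 0.18, SE; adjusted p = 7.58e-06).

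The phosphatases fell as well. Inpp5d, encoding SHIP-1, was at 39.25, 39.38 and 44.43 FPKM in naïve and 11.56, 11.34 and 12.07 FPKM in TCR activated libraries, a separation many times the spread within either group (log2 fold change -1.80 ± 0.0847, SE; adjusted p = 4.65e-09). Inpp4b was at 23.89, 24.99 and 20.86 FPKM in naïve and 5.96, 10.98 and 14.35 FPKM in activated libraries. Its groups were apart, but the activated libraries spread over more than the naïve ones, and replicate 1 was the lowest. The log2 fold change was -1.23 ± 0.248 (SE; adjusted p = 7.07e-04), and without TCR activated replicate 1 it was -0.88, under the 2-fold limit. Leaving out that library lowered the count of fallen genes from 7 to 5, through Inpp4b and Pik3cd.

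**Figure D2:**
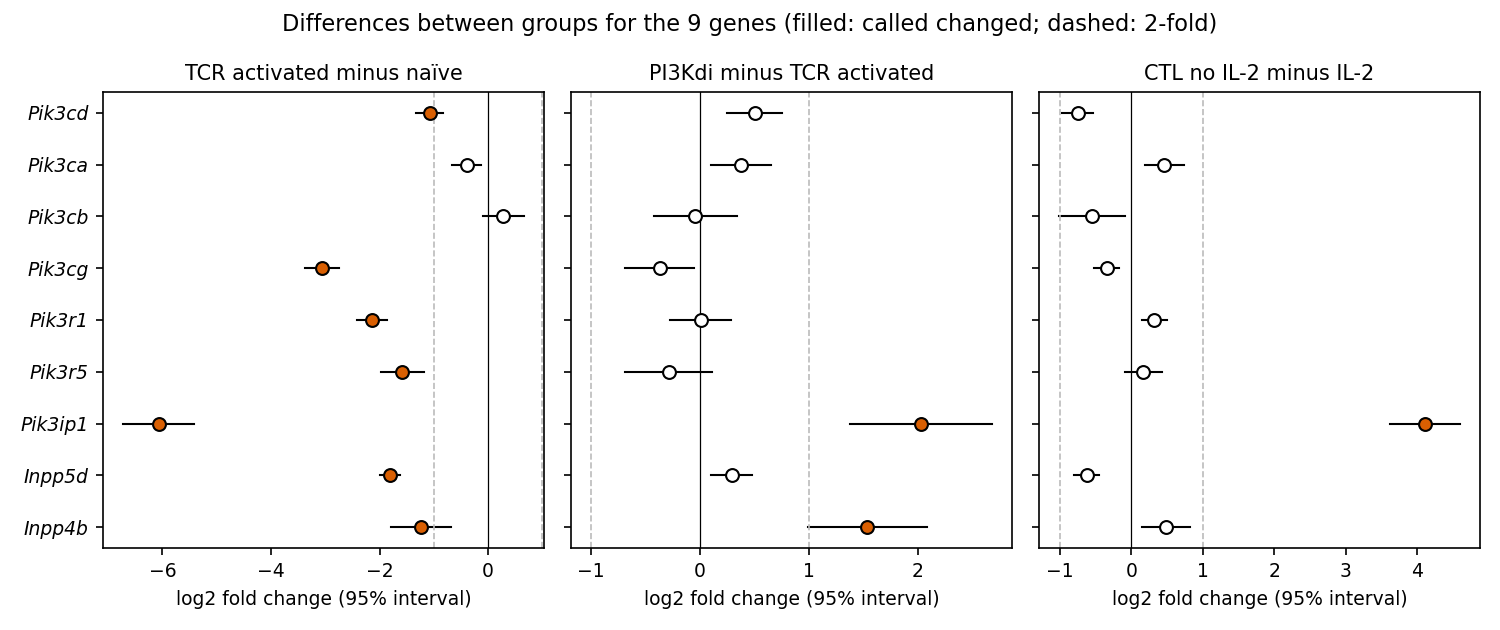
Log2 fold change of each mRNA (points) with its 95% interval from the limma fit (lines) in 3 comparisons, each panel with its own scale. Filled points were called changed and dashed lines mark 2-fold. After activation 7 genes were lower than in naïve cells, PI3Kdi raised Pik3ip1 and Inpp4b, and withdrawal of IL-2 raised Pik3ip1, the 1 gene called there.

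PI3Kdi raised 2 of the 9 mRNA and lowered none, in a comparison where 3.04% of all mRNA were called higher, 2.1% lower and 5.14% changed. The 2 were the PI3K inhibitor Pik3ip1 and the PI(3,4)P2 phosphatase Inpp4b. This comparison shares its TCR activated libraries with the comparison of activated and naïve cells, so a low value in those libraries enters both with opposite sign, and the values are therefore given for each comparison on its own.

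Pik3ip1 was at 0.75, 0.92 and 0.79 FPKM without and 2.14, 3.53 and 6.39 FPKM with PI3Kdi. All treated libraries were above all untreated ones, and the treated libraries spread far more. Within same-numbered pairs the treated library was 2.85, 3.84 and 8.09 times the untreated one. The log2 fold change was 2.03 ± 0.295 (SE; adjusted p = 9.39e-04), its size above that of 99.0% of all mRNA. It was 1.38 with a pseudocount of 1 instead of 0.1, and 1.64 without PI3Kdi replicate 3, and over the 13 alternatives the adjusted p ran from 1.26e-04 to 0.0105. The treated mean was still 0.0651 of the naïve mean (log2 fold change -4.04 ± 0.295, SE; adjusted p = 2.11e-07).

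Inpp4b was at 5.96, 10.98 and 14.35 FPKM without and 25.44, 31.51 and 29.39 FPKM with PI3Kdi. The groups did not overlap, and the treated libraries were 4.27, 2.87 and 2.05 times their same-numbered partners. The log2 fold change was 1.54 ± 0.248 (SE; adjusted p = 0.0018), larger in size than that of 97.9% of all mRNA. Treated libraries were also all above the naïve ones, although the difference was not past the threshold (log2 fold change 0.31, 95% interval -0.24 to 0.85, adjusted p = 0.273). Over the alternatives that adjusted p ran from 0.0229, when only these 2 groups were fitted, to 0.48.

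The target of the inhibitor was itself higher, by less than 2-fold. Pik3cd was at 84.07, 93.93 and 109.48 FPKM without and 118.67, 140.41 and 147.77 FPKM with PI3Kdi. The lowest treated library exceeded the highest untreated one, and the 3 pairs were alike at 1.41, 1.5 and 1.35 times. The log2 fold change was 0.50 ± 0.115 (SE; adjusted p = 0.0129), and the adjusted p ran from 0.00597 to 0.06 over the alternatives. The treated libraries stayed below all naïve ones (log2 fold change -0.57 ± 0.115, SE; adjusted p = 7.55e-04). Inpp5d showed a smaller difference with little spread, from 11.56, 11.34 and 12.07 FPKM to 14.11, 14.18 and 14.55 FPKM (log2 fold change 0.29 ± 0.0847, SE; adjusted p = 0.0378, and 0.0363 to 0.114 over the alternatives). An adjusted p under 0.05 at any fold change was reached by 4 of the 9 genes, all with higher levels, and 9.35% of all mRNA had one with higher levels. Treated libraries were all above the untreated ones for 5 of the 9 genes and all below for 1, against 18.1% and 18.6% of all mRNA.

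The other 5 genes did not pass the test with PI3Kdi. Pik3ca libraries were all above the untreated ones, at 12.58, 11.91 and 11.18 FPKM (log2 fold change 0.38, 95% interval 0.10 to 0.65, adjusted p = 0.06). Pik3cg libraries were all below, at 1.28, 1.23 and 1.67 FPKM (log2 fold change -0.37, 95% interval -0.69 to -0.05, adjusted p = 0.104). For Pik3r1, Pik3r5 and Pik3cb the groups overlapped. The 95% interval for Pik3r1, -0.28 to 0.29, lay within 2-fold in both directions, as did those for Pik3r5 (-0.69 to 0.11) and Pik3cb (-0.42 to 0.34). Against naïve cells, the treated libraries had log2 fold changes of -2.13 for Pik3r1, -1.87 for Pik3r5 and -3.43 for Pik3cg. In all, 5 of the 9 genes were lower with PI3Kdi than in naïve cells and none higher, where 21.3% of all mRNA were lower, 23.6% higher and 45% changed. The 5 were these 3, Inpp5d and Pik3ip1. All 8 CD8 T cell markers were lower in this comparison too, with a median log2 fold change of -1.51.

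The levels of the 9 mRNA took another order in each state. In TCR activated cells Pik3cd was followed by Pik3r5, Inpp5d, Inpp4b, Pik3ca, Pik3r1, Pik3cb, Pik3cg and Pik3ip1, and Inpp5d overlapped with Inpp4b and Inpp4b with Pik3ca. Pik3ip1 had moved from the second place in naïve cells to the last. With PI3Kdi the order was Pik3cd, Inpp4b, Pik3r5, Inpp5d, Pik3ca, Pik3r1, Pik3ip1, Pik3cb and Pik3cg, with overlap of Pik3r5 with Inpp5d and of Pik3ip1 with Pik3cb. Inpp4b stood clear of both its neighbours there, at 28.8 ± 3.08 (SD, n = 3) FPKM, against 14.3 ± 0.236 (SD, n = 3) FPKM for Inpp5d. The FPKM ratio of Inpp5d to Inpp4b was 1.58 to 2.13 in naïve, 0.841 to 1.94 in TCR activated and 0.45 to 0.555 in PI3Kdi treated libraries, so only in the treated group did Inpp4b exceed Inpp5d in all 3 libraries.

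**Figure D3:**
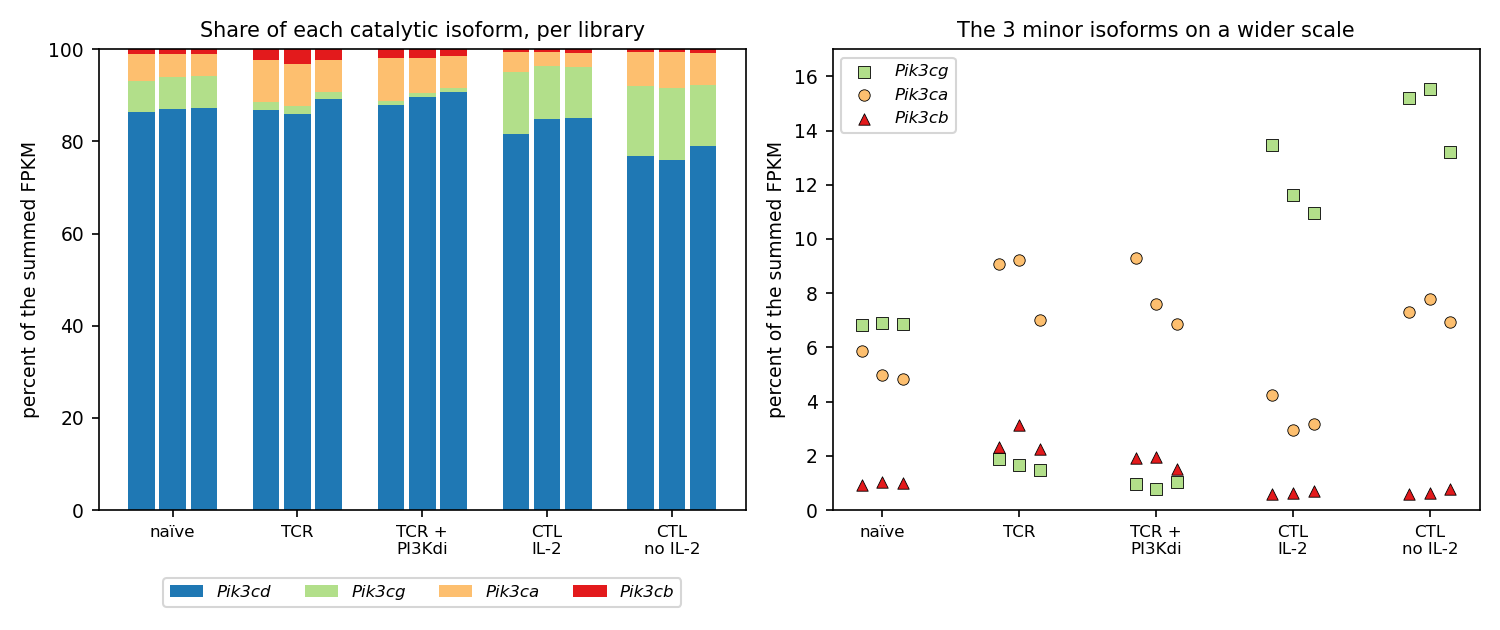
Share of each catalytic isoform in the summed FPKM of Pik3ca, Pik3cb, Pik3cd and Pik3cg, as stacked bars for each of the 15 libraries (left) and as points for the 3 minor isoforms on a wider scale (right). Pik3cd held between 76.0% and 90.6% in all libraries, and the share of Pik3cg fell from about 6.86% in naïve to 1.67% in TCR activated cells.

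Pik3cd made up most of the catalytic transcripts in each group, while their sum differed between groups. The 4 isoforms summed to 232 ± 16.9 (SD, n = 3) FPKM in naïve, 110 ± 12.9 (SD, n = 3) FPKM in TCR activated and 152 ± 14.6 (SD, n = 3) FPKM in PI3Kdi treated cells. Pik3cd made up 86.9% ± 0.468 (SD, n = 3), 87.3% ± 1.72 (SD, n = 3) and 89.4% ± 1.43 (SD, n = 3) of these sums. The range of the TCR activated libraries overlapped with both others, while the PI3Kdi treated libraries were all above the naïve ones. The share of Pik3cg fell from 6.86% ± 0.0498 (SD, n = 3) to 1.67% ± 0.201 (SD, n = 3) and was 0.919% ± 0.122 (SD, n = 3) with PI3Kdi, with no overlap among the 3 groups. Pik3cb, at 0.985% ± 0.0549 (SD, n = 3) in naïve cells, took a larger share than Pik3cg after activation, at 2.57% ± 0.484 (SD, n = 3). Shares are descriptions and were not tested.

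Regulatory transcripts did not keep pace with their partners in the same way. The ratio of Pik3r1 to Pik3cd was 0.16 to 0.171 in naïve, 0.0731 to 0.0895 in TCR activated and 0.0486 to 0.06 in PI3Kdi treated libraries, without overlap. The ratio of Pik3r5 to its partner Pik3cg went the other way, from 3.22 to 4.01 in naïve to 9.62 to 10.9 in TCR activated libraries. With PI3Kdi it was 9.47 to 12.3, overlapping the untreated range. When Pik3r2 and Pik3r3 are added, the class IA regulatory transcripts amounted to 0.184 to 0.188 of the summed Pik3ca, Pik3cb and Pik3cd in naïve and 0.113 to 0.193 in TCR activated libraries, which overlapped. With PI3Kdi they amounted to 0.103 to 0.132, overlapping the TCR activated range and below all naïve libraries.

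In CTL, the genes were compared with and without IL-2, the cytokine in which these cells were expanded. CTL levels come from a table normalised separately, so no test was made against naïve or activated cells. With IL-2 the order was Pik3cd, Inpp5d, Pik3cg, Inpp4b, Pik3r5, Pik3r1, Pik3ca, Pik3ip1 and Pik3cb, with overlap between neighbours from Pik3cg down to Pik3r1. Pik3cg, a minor transcript in the 24 h cells, was the third here, at 32.2 ± 1.62 (SD, n = 3) FPKM, and its share of the 4 catalytic isoforms was 12% ± 1.29 (SD, n = 3).

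Withdrawal of IL-2 raised 1 of the 9 genes, Pik3ip1, and lowered none past 2-fold, where 14.3% of the 11211 mRNA were higher, 13.9% lower and 28.2% changed. Pik3ip1 was at 6.73, 6.63 and 3.73 FPKM with and 85.68, 89.75 and 117.49 FPKM without IL-2. The groups were far apart, and the same-numbered ratios were 12.7, 13.5 and 31.5. The log2 fold change was 4.11 ± 0.216 (SE; adjusted p = 4.90e-07), its size above that of 99.5% of all mRNA. Without IL-2 the gene stood second in order, behind Pik3cd, as it did in naïve cells.

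Of the other 8 genes, 7 had an adjusted p under 0.05 at changes under 2-fold, where 71.9% of all mRNA had one. Lower without IL-2 were Pik3cd, from 206.93, 231.68 and 240.68 FPKM to 125.30, 127.42 and 150.82 FPKM (log2 fold change -0.75 ± 0.0965, SE; adjusted p = 8.48e-05), and Inpp5d, from 76.30, 79.87 and 84.72 FPKM to 49.34, 52.24 and 54.69 FPKM (log2 fold change -0.62 ± 0.077, SE; adjusted p = 6.62e-05). Neither pair of groups overlapped, and both genes were called lower with a fold change limit of 1.5, by which 3 of the 9 genes and 50.5% of all mRNA were changed. Pik3cg (-0.35) and Pik3cb (-0.55) were lower by smaller or less even amounts, the groups of Pik3cb overlapping. The adjusted p of Pik3cb was 0.0348, and 0.011 to 0.115 over the alternatives. Higher were Pik3ca (0.46), Inpp4b (0.48) and Pik3r1 (0.32), each with all 3 libraries above those with IL-2. Inpp4b was at 36.55, 28.59 and 23.27 FPKM with and 38.33, 39.10 and 44.45 FPKM without IL-2. The adjusted p of Inpp4b was 0.0148, and 0.000978 to 0.0515 over the alternatives. All 3 libraries without IL-2 were above those with it for 4 of the 9 genes and below for 3, against 37.6% and 38.5% of all mRNA. For Pik3r5 the groups overlapped (log2 fold change 0.17, 95% interval -0.09 to 0.43, adjusted p = 0.21).

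Without IL-2 the 4 catalytic isoforms summed to 174 ± 14.9 (SD, n = 3) FPKM, against 270 ± 15.0 (SD, n = 3) FPKM with it. Pik3cd took 77.3% ± 1.57 (SD, n = 3) of the sum instead of 83.9% ± 1.9 (SD, n = 3), and the ranges did not overlap. The share of Pik3ca rose from 3.46% ± 0.702 (SD, n = 3) to 7.35% ± 0.433 (SD, n = 3), also without overlap. The ratio of Pik3r1 to Pik3cd was 0.0927 to 0.111 with and 0.188 to 0.226 without IL-2. In the CTL, Cd79b was the 1 of 7 B cell markers with a row, at 2.74 to 6.3 FPKM with and 10.8 to 20.64 FPKM without IL-2. The 4 myeloid markers with a row, of 10, summed to 8.19 to 11.58 FPKM with and 24.95 to 31.67 FPKM without IL-2. The sums for 2 of 7 dendritic cell markers were 22.69 to 36.57 and 29.14 to 42.31 FPKM, mostly Batf3, for 2 of 3 CD4 T cell markers 16.75 to 21.36 and 25.55 to 30.23 FPKM, and for 4 of 6 NK cell markers, mainly Gzma, which CTL make, 5347 to 6107 and 2217 to 2284 FPKM. The other dendritic cell marker, Itgax, was called higher without IL-2, from 0.31 to 4.55 FPKM. Lyz2, Csf1r, Flt3 and Ncr1 had no row. The part of these markers in the results was not tested.

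The other genes of the pathway were more often lower than higher on activation, and 1 was called with PI3Kdi. Of 74 symbols, older names included, in 8 lists of phosphoinositide enzymes and effectors, 68 had a row. On activation 26 of these were lower and 5 higher, the median of their log2 fold changes being -0.72, against 0.005 for all mRNA, of which 23.7% were lower and 25% higher. With PI3Kdi 1 was higher and none lower, with a median of 0.035 against -0.008 for all mRNA, of which 3.04% were higher and 2.1% lower. That one was Txk, a TEC family tyrosine kinase, at 4.16, 5.03 and 3.52 FPKM without and 8.51, 10.99 and 9.24 FPKM with PI3Kdi (log2 fold change 1.16 ± 0.139, SE; adjusted p = 2.66e-04). It had been at 59.5 ± 3.34 (SD, n = 3) FPKM in naïve cells, so like Pik3ip1 it stayed well below that level. Txk was listed with the PIP3 effectors beside other TEC family kinases, and whether it binds PIP3 was not tested.

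Of the 8 phosphatases of PIP3 and PI(3,4)P2 with a row, Inpp5d and Inpp4b included, 6 were lower and 1 higher on activation, with a list median of -1.39. Inpp5k, a PIP3 and PIP2 5-phosphatase, had a log2 fold change of -2.67 ± 0.148 (SE; adjusted p = 1.77e-08), and Inpp4a, the paralogue of Inpp4b, one of -2.08 ± 0.198 (SE; adjusted p = 1.66e-06). Inppl1, encoding SHIP-2, was higher, at 1.95 ± 0.757 (SD, n = 3) against 0.253 ± 0.0404 (SD, n = 3) FPKM. With PI3Kdi only Inpp4b was called in this list.

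Among genes listed as PIP3 effectors 14 of 23 were lower on activation and 1 higher, against 23.7% and 25% of all mRNA, with a median of -1.18. Rasa3, a RAS GTPase-activating protein that binds phosphoinositides, went from 150 ± 8.0 (SD, n = 3) to 7.46 ± 1.01 (SD, n = 3) FPKM, and Txk fell with a log2 fold change of -3.80 ± 0.139 (SE; adjusted p = 7.16e-10). Gab2, the gene called higher, was listed at 0 in all naïve libraries and at a mean of 0.223 FPKM after activation. Among class I regulatory subunits 3 of 4 with a row fell, Pik3r3 being the third, from 0.73 to 0.18 FPKM. The adaptor Pik3ap1 (BCAP), which links receptors to p85, was higher after activation, at 2.38 ± 0.466 (SD, n = 3) against 0.393 ± 0.166 (SD, n = 3) FPKM. Of 7 genes with a row in the list of class II and III PI3K, which also held Pikfyve, Fig4 and Vac14, 1 was lower, the class III kinase Pik3c3. Of 19 other phosphoinositide phosphatases 5 were lower and 1 higher, and of 10 kinases of the 4 and 5 positions 1 was lower and 1 higher.

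In CTL without IL-2 these lists held calls in both directions. Of 71 genes with a row 8 were higher and 6 lower, with a median of 0.19 against -0.001 for all mRNA, of which larger shares, 14.3% and 13.9%, were higher and lower. The regulatory subunits Pik3r2 (log2 fold change 1.03 ± 0.185, SE; adjusted p = 7.54e-04) and Pik3r3 (1.14 ± 0.254, SE; adjusted p = 0.00271) were higher, and Pik3ap1 fell from 24.4 ± 4.47 (SD, n = 3) to 9.25 ± 2.51 (SD, n = 3) FPKM. Inpp5k, at 17.9 ± 2.83 (SD, n = 3) with and 65.1 ± 3.24 (SD, n = 3) FPKM without IL-2, and Inpp4a, at 1.65 and 3.64 FPKM, were the phosphatases of PIP3 and PI(3,4)P2 called higher, and Inpp5j, under 1 FPKM in both groups, the one called lower. Among genes listed as PIP3 effectors 3 were higher, led by Rasa3, and 2 lower, Txk and Rasa2. Txk was at 18.3 ± 4.36 (SD, n = 3) with and 6.13 ± 2.19 (SD, n = 3) FPKM without IL-2.

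Of 6 genes that the study names as targets of FOXO1, 5 were lower on activation, 3 higher with PI3Kdi and 6 higher in CTL without IL-2. The shares of all mRNA were 23.7%, 3.04% and 14.3%. Under 2-fold with PI3Kdi were Ccr7, Tcf7 and S1pr1, the last at 3.79 FPKM in TCR activated and 3.96 FPKM in treated cells. The list was taken from the study's own account with results of these data known, so these counts are not independent evidence of a direction. The list is set beside Pik3ip1, which was lower, higher and higher in the same comparisons, and a part of FOXO1 in this was not tested. The study also lists Pik3r5, and Arap3, Gab3, Phlpp1 and Rasa3 of the pathway lists, as raised by PI3Kdi through FOXO1 in CTL. In the 24 h activated cells none of these was called with PI3Kdi. The groups of Pik3r5 overlapped there (log2 fold change -0.29, 95% interval -0.69 to 0.11). No CTL of these libraries was treated with PI3Kdi, so the result in CTL was not tested here.

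**Figure D4:**
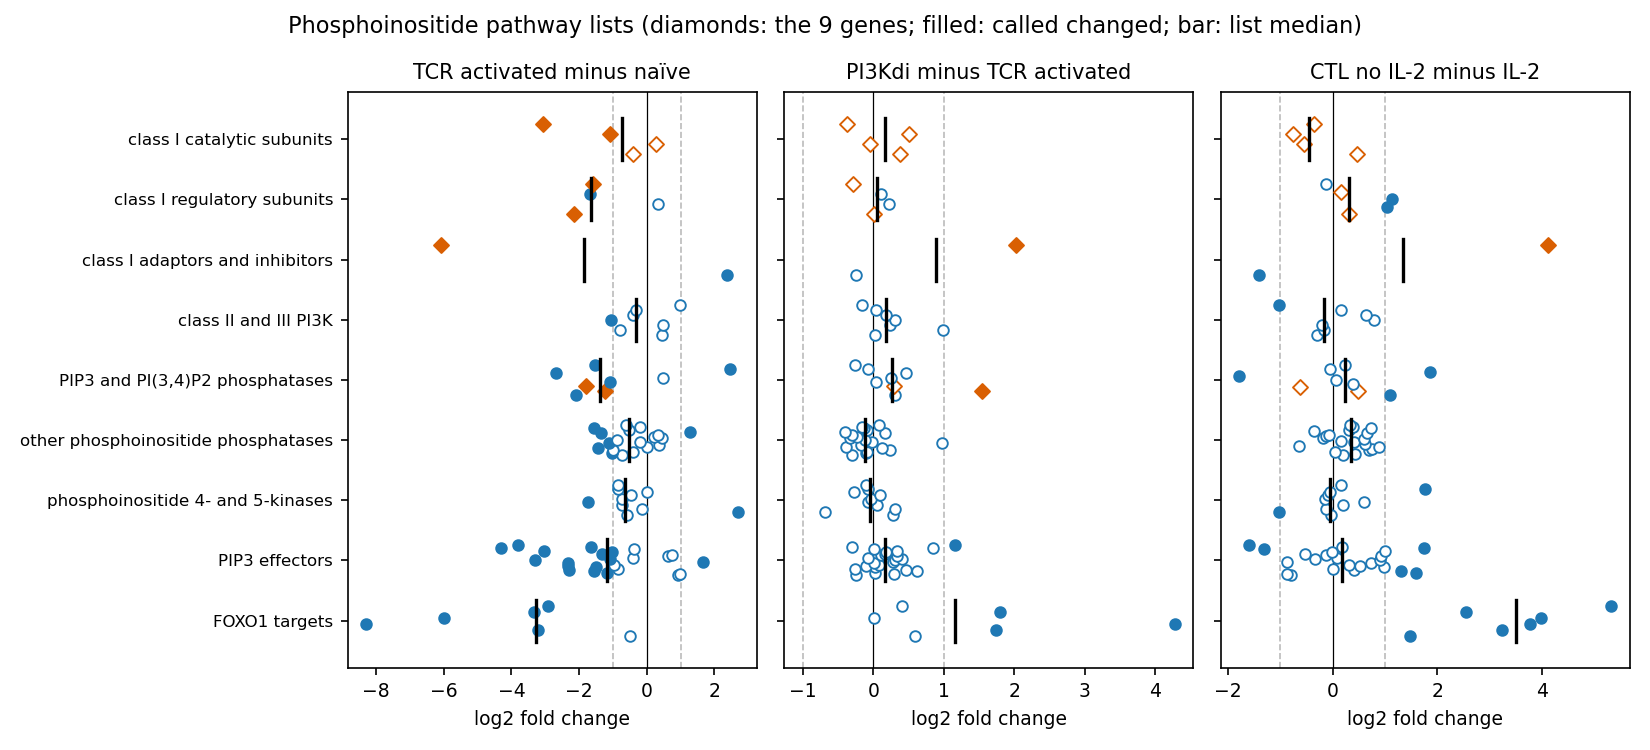
Log2 fold change of each gene in 8 pathway lists and of the FOXO1 targets, in 3 comparisons with separate scales. Diamonds are the 9 genes, filled symbols were called changed, black bars are list medians and dashed lines mark 2-fold. With PI3Kdi the filled symbols outside the FOXO1 targets are Pik3ip1, Inpp4b and Txk.

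The mRNA whose levels were most like those of each gene were sought by Pearson r of log2(FPKM + 0.1) over the 9 naïve and activated libraries, among mRNA with a mean of at least 1 FPKM. These points share 3 groups, so r mainly reflects differences between groups. Cnp (r = 0.997), Lrch1 (r = 0.997) and Scml4 (r = 0.996) were closest to Pik3ip1. Scml4 had means of 59.9 FPKM in naïve, 0.717 FPKM in TCR activated and 3.0 FPKM in PI3Kdi treated cells. Closest to Inpp4b were Usp38 (r = 0.989), which encodes a deubiquitinase, and Ifi47 (r = 0.984) and Irgm1 (r = 0.979), which encode interferon-inducible GTPases. Tgtp1, Slfn1 and Arhgap26 were closest to Pik3cd, with r from 0.991 to 0.992. The closest to Inpp5d was Cat, encoding catalase (r = 0.999), to Pik3r1 Stk38, to Pik3cg Pag1, to Pik3r5 Fam36a, to Pik3ca Dennd2c and to Pik3cb Dnm1l. Over the 6 CTL libraries, in 2 groups, Zscan2, Limd2 and Il27ra followed Pik3ip1 with r of at least 0.999.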

How the data were processed

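Libraries were made from total RNA with a stranded mRNA kit. The authors deposited FPKM, made according to their methods and processing notes by alignment to mm10 with STAR 2.5.2b, counting with Subread 1.5.1, filtering and TMM normalisation in edgeR and division by exon length. The same steps were assumed for the CTL. Values have 2 decimals, and 1039 blank cells were read as 0. Read totals are not given in the sources used here, and the lowest values of the first table correspond to roughly 9.46 to 13.8 M reads per library, so no detection limit was taken.

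Groups followed titles and replicate numbers. CTL treatment labels of IL-2 replicates 2 and 3 name other interleukins. Each table was fitted in R 4.3.3 with limma 3.58.1 on log2(FPKM + 0.1) with an intensity trend and Benjamini-Hochberg adjustment. Simulations changed 200 genes, of a mean of at least 1 FPKM, by a log2 fold change of 2, with independent normal noise. They recovered 97% to 99.5% of these genes, with 3 to 5 false calls. Changes near the 2-fold limit were not simulated, so the recovery does not apply to them. Python 3.11.15, pandas 2.3.3, numpy 2.4.6 and matplotlib 3.10.9 were used. Promoters and coordinates come from RefSeq GRCm38.p6, matched by Entrez number for all 9 genes, and overlaps from GENCODE vM21.

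The 9 genes and the lists were chosen with earlier results of these data known. From each list, at most the 2 largest rises and 2 largest falls among called genes were named per comparison, and a few list members are not reported here. According to the labels, pools of the naïve and activated cells were divided, but replicate numbers are not stated to mark a pool. Between same-numbered libraries, deviations from group means correlated across genes at 0.203 to 0.506 for the TCR activated and PI3Kdi groups. They correlated at 0.123 to 0.257 for the CTL groups, but at -0.181 to 0.226 for the naïve and TCR activated groups.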

Additional observations from a re-analysis of the deposited data

How the results depend on the processing

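The 9 genes were refitted in each comparison under other pseudocounts, filters, scalings and fits and without single libraries, giving 459 values. Of these values, 448 kept direction and side of the threshold. Some settings, such as the replicate block, left the log2 fold change as it was by construction, so there only the adjusted p could move. The falls of Pik3cd and Inpp4b on activation that dropped under 2-fold are given with those genes, so the count of fallen genes ran from 5 to 7 without single libraries. Signs turned only for differences near 0: with PI3Kdi against TCR activated cells, Pik3r1 was at -0.021 with median scaling, and without single libraries it ran from -0.12 to 0.070 (-0.052 without TCR activated replicate 2) and Pik3cb from -0.18 to 0.10 (0.024 without PI3Kdi replicate 3). Against naïve cells Pik3ca with PI3Kdi was at 0.073 with median scaling and from -0.12 to 0.092 without single libraries (0.023 without PI3Kdi replicate 3). The cause was not tested. A pseudocount of 1 moved Pik3ip1 on activation from -6.07 to -5.10 and Pik3cg with PI3Kdi against naïve cells from -3.43 to -2.82.

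All mRNA called with PI3Kdi numbered 579, and 311 with a pseudocount of 1 or 1120 with a fold change limit of 1.5. For CTL that limit gave 5657 in place of 3166, and 3 of the 9 genes in place of 1, by its construction. A replicate block gave 591 mRNA with PI3Kdi and 5495 on activation, and the block changed no call of the 9. Precision is limited by 3 libraries per group and unknown depth.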

Other observations

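Usp38, the mRNA most like Inpp4b over the naïve and activated libraries, is also near it in the genome, which was noticed after the values were seen. It lies on chromosome 8 of GRCm38.p6 from 80980724 to 81015013, 327 kb from Inpp4b, with 3 RefSeq genes between them, none of them protein coding. Usp38 was at 28.09, 25.32 and 24.69 FPKM in naïve, 14.21, 18.42 and 20.23 FPKM in TCR activated and 28.14, 31.51 and 29.58 FPKM in PI3Kdi treated libraries. In CTL it was at 22.51, 17.69 and 20.37 FPKM with and 32.73, 32.79 and 37.52 FPKM without IL-2. In both genes TCR activated replicate 1 was the lowest library of all. All libraries without IL-2 were above those with it in both, as in 37.6% of all mRNA. Over the CTL libraries the mRNA closest to Inpp4b were Mtm1, Aph1a and Smyd4, and Usp38 was not among them.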
